A study of Mus musculus with 12 samples.

Results

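Platelets and the megakaryocytes that shed them are marked by a small set of surface receptors and granule proteins, and 9 genes of that set were followed here through macrophages sorted from mouse bone marrow. The genes were Pf4, Ppbp, Gp1ba, Gp1bb, Gp5, Gp9, Itga2b, Itgb3 and Treml1, taken by symbol from the 56832 gene entries of the count table, whatever their values. Macrophages were sorted by flow cytometry as CD45+, F4/80+, Ly6g- and Ly6c- cells, from non-leukemic mice and from mice late in disease after transplantation of leukemic cells of the bcCML model (blast crisis chronic myeloid leukemia). Each condition held male and female libraries, with 3 libraries in each of 4 groups: non-leukemic male mice, non-leukemic female mice, and leukemic mice of either sex at day 11. The labels name no strain, age or further treatment for any group, and do not say whether the non-leukemic mice received a transplant. Nor is it stated that each replicate was an animal of its own, so each p measures the spread between libraries, which may be technical. The leukemia grows from transplanted cells in a host marrow, and the labels give no marker that parts donor from host cells in the sorted fraction.

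As background, megakaryocytes arise in the marrow from progenitors shared with the red cell lineage, under GATA1 with its partner FOG1 (Zfpm1) and under ETS factors such as FLI1. Pf4 and Ppbp encode chemokines packed in platelet alpha granules. Gp1ba, Gp1bb, Gp5 and Gp9 encode the receptor complex that holds platelets on von Willebrand factor, and Itga2b and Itgb3 encode the integrin that binds fibrinogen. Treml1 encodes a receptor stored in alpha granules that reaches the surface of activated platelets. Several of these genes are also used outside the lineage: Itga2b in early blood progenitors and in mast cells, and Itgb3, as a partner of Itgav, in macrophages, osteoclasts and mast cells.

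The stretches upstream of 4 of the genes are shown because the results turn on these genes: Gp9 and Itga2b passed the test of leukemia in opposite directions, and Gp5 and Pf4 had the lowest p between male and female leukemic libraries. Each is the 250 bases before the annotated start, read 5′ to 3′ along the gene, from RefSeq on build GRCm38.p6. Capitals mark AGGAAG, a core that ETS factors recognise, or AGATAA, a core that GATA factors recognise, on either strand. On the opposite strand these read CTTCCT and TTATCT. The stretches lie at chr6:87777820-87778069 on the plus strand for Gp9, chr11:102469884-102470133 on the minus strand for Itga2b, chr16:30310782-30311031 on the minus strand for Gp5 and chr5:90772185-90772434 on the plus strand for Pf4.
Gp9: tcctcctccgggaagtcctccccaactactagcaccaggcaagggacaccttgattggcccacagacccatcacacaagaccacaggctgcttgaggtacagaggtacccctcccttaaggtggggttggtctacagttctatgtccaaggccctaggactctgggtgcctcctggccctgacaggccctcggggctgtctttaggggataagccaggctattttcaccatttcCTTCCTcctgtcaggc
Itga2b: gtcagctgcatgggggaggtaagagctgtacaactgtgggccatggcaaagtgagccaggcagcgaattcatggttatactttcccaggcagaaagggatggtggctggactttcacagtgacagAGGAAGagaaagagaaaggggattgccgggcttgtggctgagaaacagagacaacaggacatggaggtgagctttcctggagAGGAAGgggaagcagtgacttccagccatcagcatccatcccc
Gp5: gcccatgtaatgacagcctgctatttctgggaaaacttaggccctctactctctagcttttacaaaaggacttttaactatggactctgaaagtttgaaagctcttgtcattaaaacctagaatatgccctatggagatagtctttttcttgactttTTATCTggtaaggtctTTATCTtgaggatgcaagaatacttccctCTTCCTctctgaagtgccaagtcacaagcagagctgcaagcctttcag
Pf4: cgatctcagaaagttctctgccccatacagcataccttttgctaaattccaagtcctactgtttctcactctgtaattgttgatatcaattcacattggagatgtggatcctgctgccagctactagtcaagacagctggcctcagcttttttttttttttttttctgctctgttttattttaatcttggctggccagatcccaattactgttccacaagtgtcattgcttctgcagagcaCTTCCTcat
Gp9 holds 1 CTTCCT that begins at position -16, counted from 0 at the start base. Itga2b holds AGGAAG at -125 and at -43. Gp5 holds AGATAA 2 times on the opposite strand, at -93 and -77, with CTTCCT at -48. Pf4 holds CTTCCT at -9, and an AGATAA lies after its start, at 36. Windows of 250 bases before to 50 after the start were found for 8 of the 9 genes, all but Itgb3. Among these 8 windows, 6 held AGGAAG, 2 held AGATAA and 1, that of Gp1bb, held the other ETS core CGGAAG. Of all 32851 RefSeq windows of this length, 35.4% held AGGAAG, 11.2% held AGATAA and 16.9% held CGGAAG. The windows of Ppbp and Treml1 held none of these motifs. Only these exact sequences were searched, so other forms of the GATA and ETS cores were neither marked nor counted. A match describes the sequence and does not show a binding site.

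The libraries held 16911827 to 30014855 counts, and 15758 genes passed a filter on low counts (filterByExpr of edgeR over the 4 groups). Of these, 1373 (8.71%) were higher and 1449 (9.2%) were lower in leukemic libraries at an adjusted p under 0.05 in edgeR's quasi-likelihood test with sex as a term. Higher genes made up 48.7% of the calls, and 59.9% when counts were scaled by library totals alone. In female leukemic replicate 1 only 17891 genes had a count, where the others had 19521 to 21247. Male non-leukemic replicate 3 differed in its macrophage genes, whose summed level was 4574 CPM (counts scaled to a common library size), while the rest of its condition had 1239 to 1704. These libraries are called the 2 that stood apart below. They also kept Gp9, Itga2b and Itgb3 from separating by condition, so fits without either give no further support to those calls. Female leukemic replicate 2, whose macrophage genes had the lowest sum of the leukemic libraries at 497 CPM, was kept. Of the 12 macrophage markers, 7 were lower in leukemic libraries and none higher, with sums of 497 to 1163 CPM. That count of 7 was 4 to 11 when each library was left out in turn, and 11 without female leukemic replicate 1. The same counts were 6 lower of 9 neutrophil markers, 2 lower of 6 tested osteoclast markers, and 1 higher and 1 lower of 8 endothelial markers.

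Of the 9 platelet genes, 8 passed the filter and were tested, and the other, Gp1bb, had too few counts. Leukemic libraries had higher Itga2b and Itgb3 and lower Gp9, so 2 of 8 were called higher and 1 of 8 lower, against 8.71% and 9.2% of all genes tested. The median log2 fold change of the 8 was 0.49, with 6 of them above 0, while that of all 15758 genes was -0.01. The genes thus had no common direction, and none of the 8 had all 6 leukemic libraries on one side of all 6 non-leukemic ones. Across all genes, 5.05% lay wholly above and 3.63% wholly below. In such sorted pools, fewer cells of a type and less RNA per cell cannot be told apart.

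**Figure D1:**
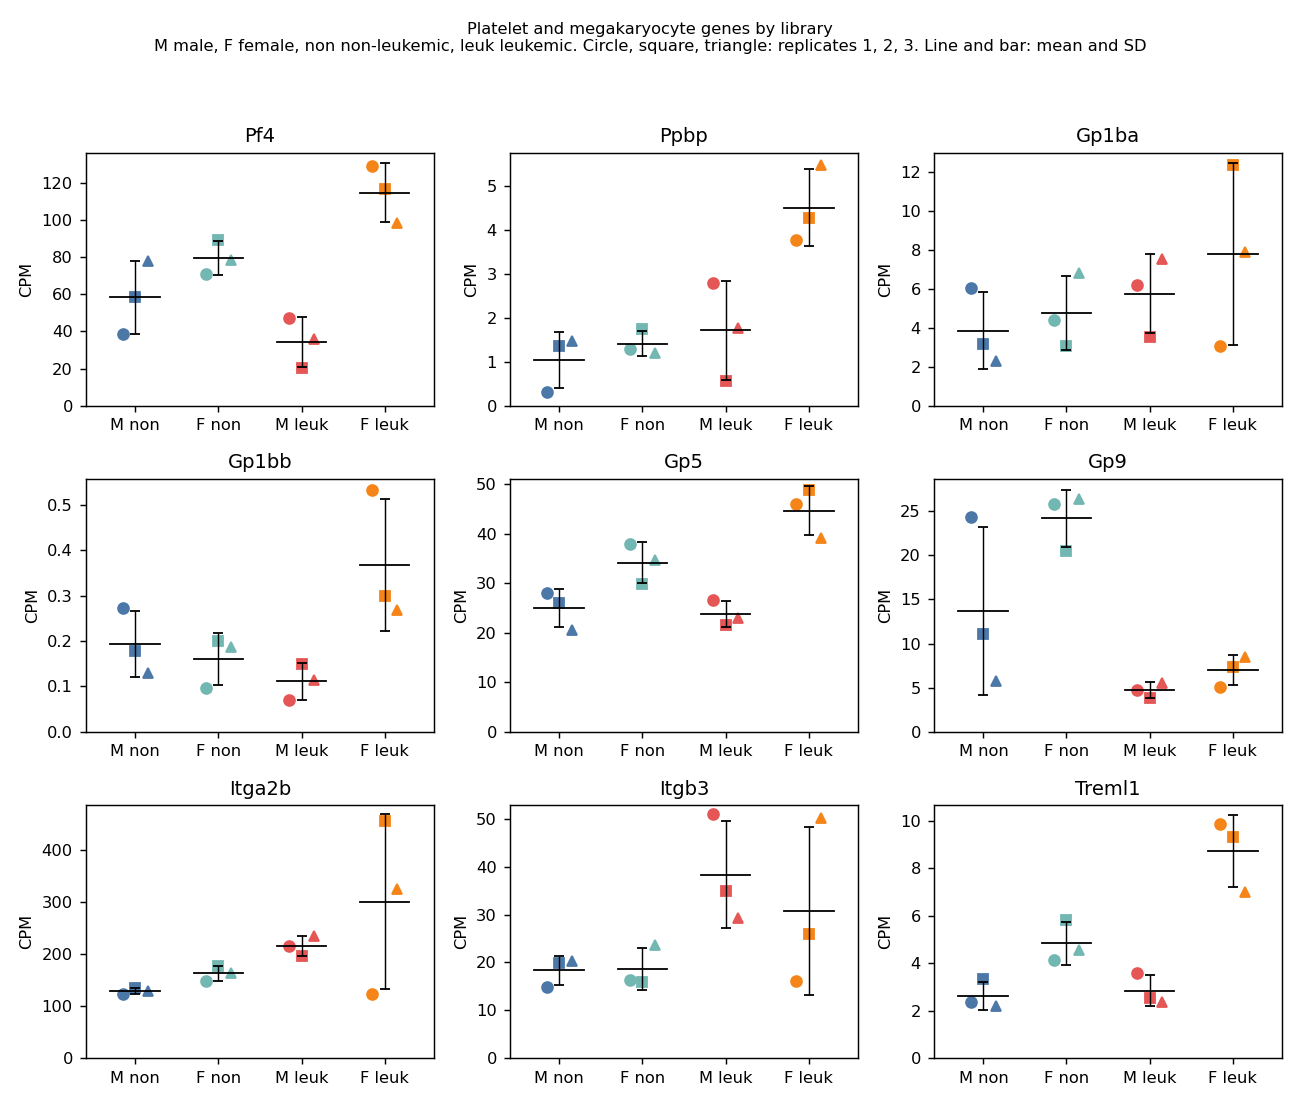
Level of each of the 9 genes in CPM (linear axis from 0) in 12 libraries, by sex and condition; circles, squares and triangles are replicates 1, 2 and 3, and lines with bars are the mean and SD of 3 libraries. Gp9 was low in all 6 leukemic libraries (3.82 to 8.51 CPM), and Pf4, Gp5, Ppbp and Treml1 were higher in the 3 female leukemic libraries than in the 3 male ones.

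To compare levels between genes, CPM were divided by exon length in kilobases (kb), taken from an annotation on GRCm38. In non-leukemic libraries Pf4 had the highest level, at 95.6 ± 25.0 CPM per kb (SD, n = 6). It was followed by Itga2b at 26.7 ± 3.95, Gp9 at 21.5 ± 9.75 and Gp5 at 13.4 ± 2.82 CPM per kb. Itga2b, Gp9 and Gp5 overlapped as neighbours in this order. Itgb3 had 3.13 ± 0.569, Treml1 2.66 ± 0.993, Gp1ba 1.59 ± 0.666 and Ppbp 1.14 ± 0.448 CPM per kb, a range in which neighbours again lay within their spread. Gp1bb came last at 0.0848 ± 0.0292 CPM per kb. In leukemic libraries Gp9, at 6.64 ± 1.98 CPM per kb, stood below Gp5 at 15.5 ± 5.45, and Itga2b stood at 47.5 ± 21.4.

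Markers of finished platelets were checked against the label. Tubb1, the beta tubulin of the platelet rim, had 36 counts over the 6 non-leukemic libraries and 51 over the 6 leukemic ones, which is 0 to 0.786 CPM per library. Gp6, the platelet collagen receptor, had no count in any non-leukemic library, where up to 3 counts would go unseen (0.113 to 0.177 CPM per library). It had 23 counts in 3 of the leukemic libraries. Other platelet genes were well counted: Vwf had 3475 counts over the non-leukemic and 3336 over the leukemic libraries, and Selp, the P-selectin gene, 1076 and 3301. In the same order, the platelet list genes Myl9 (22 and 53 counts), Mpig6b (24 and 64) and Alox12 (53 and 33) were also scarce. P2rx1 (2549 and 5344 counts) and F2rl3 (983 and 3214) were not. Tubb1 and Gp6 were thus at or near 0 while most of the 9 genes were not, and other platelet genes went both ways. The cells that gave the transcripts of the 9 were not identified, and they are described as genes below.

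Among the adhesion receptor genes, Gp9, the small subunit needed to bring the complex to the surface, was lower in leukemic libraries. Male non-leukemic libraries had 24.3, 11.1 and 5.72 CPM and female non-leukemic libraries 25.7, 20.5 and 26.3 CPM. Male leukemic libraries had 4.73, 3.82 and 5.58 CPM and female leukemic libraries 5.13, 7.34 and 8.51 CPM. The groups overlapped through male non-leukemic replicate 3 alone, whose 5.72 CPM lay inside the leukemic range. The log2 fold change was -1.74 ± 0.28 (SE), with an adjusted p of 0.00108 in edgeR's test. Without the 2 libraries that stood apart it was -1.83, with an adjusted p of 2.14e-04 in edgeR. That fit leaves out male non-leukemic replicate 3, the library that made the groups overlap, so it gives no further support. The call held in all 21 alternatives tried, with log2 fold changes of -1.90 to -1.41.

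The fall of Gp9 was of similar size in both sexes. It was -1.67 ± 0.42 in male libraries (edgeR, adjusted p = 0.0318) and -1.80 ± 0.42 in female libraries (edgeR, adjusted p = 0.0210). In each sex Gp9 was 1 of 8 platelet genes called lower, beside 4.04% of all genes in male and 4.59% in female libraries, and no platelet gene was called higher, beside 3.34% and 3.84%. At an unadjusted p under 0.05, 3 of the 8 passed in male libraries (21.5% of all genes) and 5 in female libraries (23.6%). DESeq2 called 2 of the 8 in male and 3 in female libraries, beside 13% and 15% of all genes, and limma-voom called 0 and 1, beside 7.04% and 8.88%. The difference between the sexes was -0.13 ± 0.58 on the log2 scale (edgeR, adjusted p = 0.977). The calls within a sex were less firm than the pooled one. In male libraries the adjusted p rose to between 0.0521 and 0.138 in edgeR when any one library was left out among male non-leukemic replicates 1 and 2, the 3 female non-leukemic and the 3 male leukemic replicates. Without male non-leukemic replicate 3 it was -2.02 (edgeR, adjusted p = 0.00488). Without male non-leukemic replicate 1 the male log2 fold change was -0.96. In female libraries it rose to between 0.0514 and 0.0828 in edgeR without female non-leukemic replicate 1 or 3 or any female leukemic replicate.

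Between the conditions, Gp9 did not change with Gp5 or Gp1ba, the other genes of its complex that could be tested. With group means taken off, the Pearson r of log2 CPM with Gp9 was 0.76 for Gp1ba and 0.57 for Gp5. These values over 12 libraries are descriptions with no test. Gp5, which joins the complex as a dispensable subunit, had 28.1, 26.1 and 20.6 CPM in male and 38.0, 29.8 and 34.7 CPM in female non-leukemic libraries. It had 26.6, 21.6 and 22.9 CPM in male and 45.9, 48.7 and 39.1 CPM in female leukemic libraries. Its log2 fold change with leukemia was 0.09 ± 0.15 (edgeR, adjusted p = 0.749), and the conditions overlapped in male libraries, while the 3 female leukemic values lay just above the 3 female non-leukemic ones. Gp1ba, which carries the binding site for von Willebrand factor, ranged from 2.28 to 6.84 CPM in non-leukemic and from 3.07 to 12.4 CPM in leukemic libraries. Its log2 fold change was 0.55 ± 0.35 (edgeR, adjusted p = 0.325). The CPM of Gp9 divided by that of Gp1ba was 2.51 to 6.61 in the 6 non-leukemic libraries and 0.592 to 1.67 in the 6 leukemic ones, so these ratios did not overlap. The ratio of Gp9 to Gp5 was 0.277 to 0.865 and 0.112 to 0.243, again without overlap, male non-leukemic replicate 3 included. The ratios were not tested, and the share of gene pairs without overlap was not computed.

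Gp1bb, the beta chain linked to Gp1ba, could not be followed. It had 23 counts in all non-leukemic and 39 in all leukemic libraries, or 0.0700 to 0.533 CPM. In the annotation used here, on GRCm38, 91.1% of its exon bases (1902 of 2087) also belong to the neighbouring gene Septin5 on the same strand. How reads in the shared bases were counted is not given in the sources used here, so its low count cannot be read as absence. Septin5 itself had 1.90 to 4.43 CPM in non-leukemic and 0.528 to 1.20 CPM in leukemic libraries.

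Gata1, the transcription factor gene of the red cell and megakaryocyte lineages, was low in the same libraries as Gp9. It had 354.8, 194.1 and 112.0 CPM in male and 353.6, 332.2 and 311.4 CPM in female non-leukemic libraries, so its lowest value in that condition was also in male replicate 3. It had 59.5 to 96.8 CPM in male and 84.8 to 129.1 CPM in female leukemic libraries. Its log2 fold change was -1.63 ± 0.23 (edgeR, adjusted p = 3.60e-04). The ratio of Gp9 to Gata1 was 0.0659 ± 0.0120 in non-leukemic and 0.0646 ± 0.0180 in leukemic libraries (SD, n = 6 each), with a range of 0.0510 to 0.10 over all 12. This ratio was not tested, and the share of other lower genes with as even a ratio to Gp9 was not computed. Red cell precursor genes were lower as well: 13 of 13 tested erythroid markers were called, beside 9.2% of all genes. Their median log2 fold change was -4.31. Their summed level was 17610 to 27141 CPM in non-leukemic and 1472 to 3258 CPM in leukemic libraries. None of the 13 was at 0 in more than 1 library. In male non-leukemic replicate 3 the erythroid sum was 17610 CPM, far above the leukemic range, while Gp9 lay within it. The part of red cell precursors in the lower Gp9 was not tested.

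**Figure D2:**
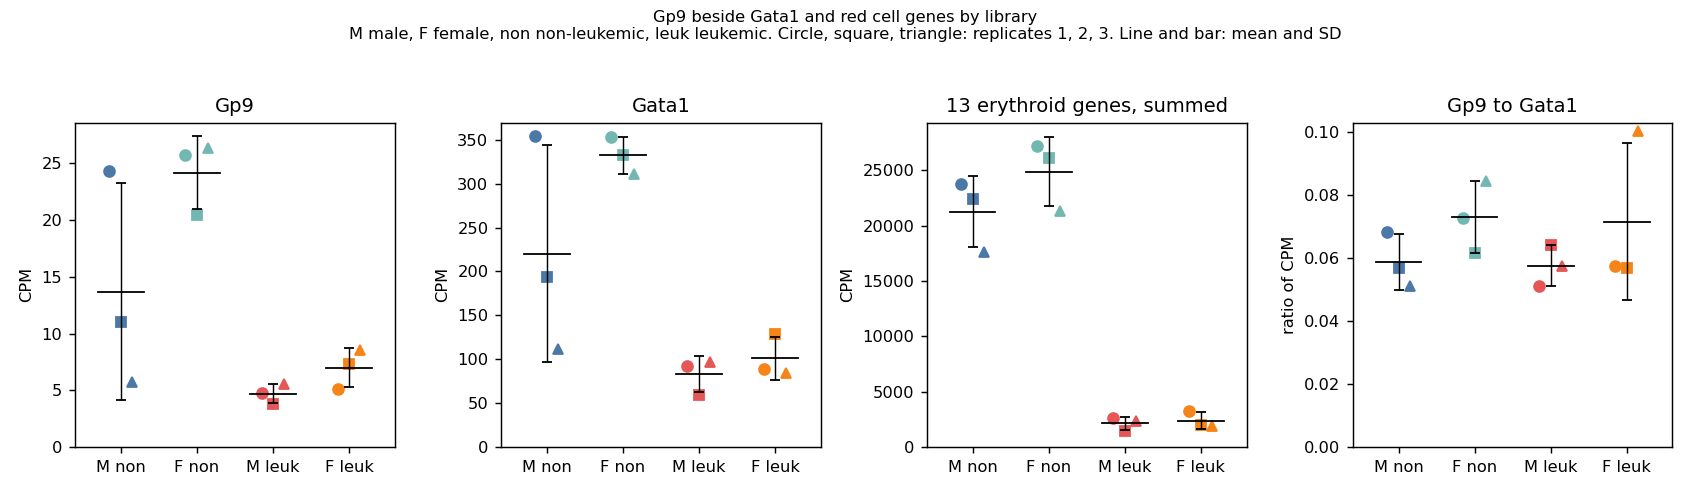
Gp9, Gata1 and the sum of 13 erythroid genes in CPM, and the ratio of Gp9 to Gata1, in 12 libraries by sex and condition; replicate symbols, means and SDs are as in the plot of all 9 genes, and every axis is linear from 0. Gp9 and Gata1 were both lowest, among non-leukemic libraries, in male replicate 3, and the ratio, which was not tested, ranged from 0.0510 to 0.10.

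The fibrinogen receptor genes were higher in leukemic libraries. Itga2b, the alpha chain, had 122, 134 and 129 CPM in male and 149, 178 and 163 CPM in female non-leukemic libraries. It had 217, 196 and 235 CPM in male and 123, 456 and 326 CPM in female leukemic libraries. Of the leukemic libraries, 5 lay above all non-leukemic ones and female leukemic replicate 1 did not. The log2 fold change was 0.72 ± 0.21 (edgeR, adjusted p = 0.0296). Itgb3, the beta chain, had 14.8, 19.9 and 20.3 CPM in male and 16.4, 15.9 and 23.6 CPM in female non-leukemic libraries. It had 51.0, 34.9 and 29.2 CPM in male and 16.2, 26.0 and 50.3 CPM in female leukemic libraries. The same single library, female leukemic replicate 1, kept the groups from separating. The log2 fold change of Itgb3 was 0.81 ± 0.24 (edgeR, adjusted p = 0.0354).

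In edgeR both integrin calls lay near the threshold and depended on which libraries were used. With the 2 libraries that stood apart left out, Itga2b had a log2 fold change of 0.94 (edgeR, adjusted p = 2.93e-04) and Itgb3 of 1.03 (edgeR, adjusted p = 0.00572). The 2 include female leukemic replicate 1, which kept the groups from separating, so fits without it give no further support to these calls. In limma-voom with all libraries, the adjusted p was 0.0547 for Itga2b and 0.0628 for Itgb3, and in DESeq2 0.00527 and 0.00795. The Itga2b call was lost, at adjusted p of 0.0511 to 0.0635 in edgeR, without male non-leukemic replicate 1 or 2, any female non-leukemic replicate, male leukemic replicate 3 or female leukemic replicate 2 or 3. That of Itgb3 was lost, at 0.0535 to 0.0887 in edgeR, without male non-leukemic replicate 1 or 2, female non-leukemic replicate 1 or 2, male leukemic replicate 1 or 2 or female leukemic replicate 3. The direction of both held throughout. Within a sex neither passed in edgeR with all libraries. Itga2b had 0.60 ± 0.30 in male and 0.84 ± 0.30 in female libraries on the log2 scale. The values of Itgb3 were 0.91 ± 0.35 and 0.71 ± 0.35. DESeq2 called Itga2b in female libraries, at 0.86 with an adjusted p of 0.0417, while limma-voom called neither gene within a sex. Without female leukemic replicate 1, Itga2b passed in male (0.61, edgeR, adjusted p = 0.0157) and in female libraries (1.21, edgeR, adjusted p = 0.00171).

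The chains did not keep one proportion. The CPM of Itga2b divided by that of Itgb3 ran from 6.32 to 11.2 in non-leukemic and from 4.25 to 17.5 in leukemic libraries. Itgav, the other alpha chain that pairs with Itgb3, had a log2 fold change of 0.14 ± 0.31 (edgeR, adjusted p = 0.816). Its level in male non-leukemic replicate 3 was 51.3 CPM, and 16.2 to 23.5 CPM elsewhere in that condition. Without the 2 libraries that stood apart, Itgav passed as well, at 0.69 (edgeR, adjusted p = 0.0270), and without female leukemic replicate 3 its log2 fold change was -6.0e-04.

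Markers of several other cell types that use these integrins were compared beside them, and they did not share one direction. Of 8 basophil and mast cell genes, 6 were higher in leukemic libraries and none lower, beside 8.71% and 9.2% of all genes. Their summed level was 3799 to 8145 CPM in non-leukemic and 9281 to 33915 CPM in leukemic libraries, and none of the 8 was at 0 in any library. Female leukemic replicate 2 had both the highest sum and the highest Itga2b, at 33915 and 456 CPM. Of 8 stem and progenitor genes, 6 were higher and none lower, with sums of 132 to 297 CPM and 448 to 621 CPM, and Slamf1 was at 0 in 1 library. In female leukemic replicate 1 these sums were 14823 and 503 CPM, both above every non-leukemic library, while Itga2b and Itgb3 were not. Markers of macrophages and osteoclasts, which use Itgb3, were lower: 7 of 12 and 2 of 6 tested, with none higher. The osteoclast sum was 521 to 1388 CPM in non-leukemic and 309 to 473 CPM in leukemic libraries. The part of any of these cells in the higher integrin genes was not tested.

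**Figure D3:**
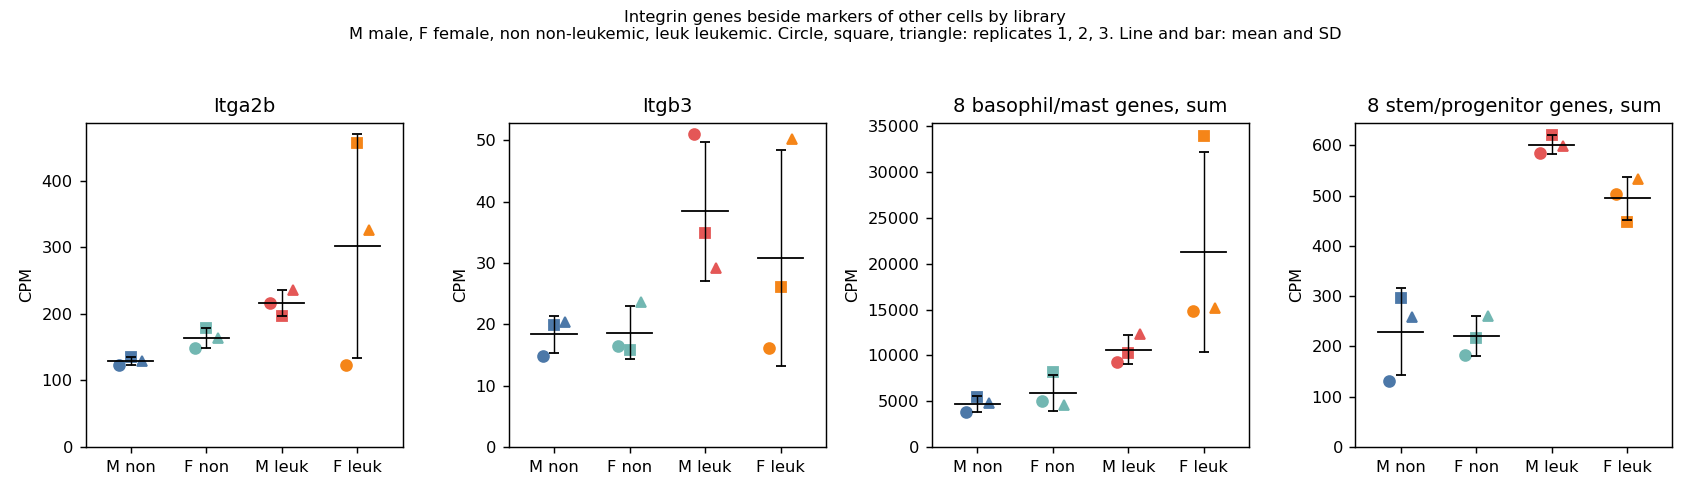
Itga2b and Itgb3 in CPM beside the summed CPM of 8 basophil and mast cell genes and of 8 stem and progenitor genes, in 12 libraries by sex and condition, with mean and SD of 3 libraries and linear axes from 0. Female leukemic replicate 1 (circle) had 123 CPM of Itga2b, within the non-leukemic range, but 14823 CPM of basophil and mast cell genes, above it.

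The granule chemokine genes were not called with leukemia over both sexes. Pf4, platelet factor 4, had 38.6, 58.5 and 78.1 CPM in male and 70.8, 89.3 and 78.5 CPM in female non-leukemic libraries. It had 47.3, 20.4 and 35.7 CPM in male and 129.3, 116.8 and 98.1 CPM in female leukemic libraries. Every female leukemic library lay above every other library, and male leukemic libraries lay below the middle of the male non-leukemic range. The log2 fold change was -0.93 ± 0.32 in male (edgeR, adjusted p = 0.111) and 0.55 ± 0.32 in female libraries (edgeR, adjusted p = 0.342), and -0.19 ± 0.31 over both (edgeR, adjusted p = 0.739). DESeq2 called the male difference, at -0.93 with an adjusted p of 0.0488, and limma-voom did not (adjusted p = 0.123). The difference of the sexes in their response was 1.47 ± 0.45 on the log2 scale (edgeR, adjusted p = 0.815).

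Ppbp, which encodes the precursor of the chemokine NAP-2, was scarce. It had 0.317, 1.36 and 1.46 CPM in male and 1.29, 1.75 and 1.20 CPM in female non-leukemic libraries. It had 2.80, 0.562 and 1.77 CPM in male and 3.76, 4.27 and 5.48 CPM in female leukemic libraries. The lowest of these values rested on 7 counts, and its Wilson 95% interval was 0.154 to 0.655 CPM, which covers counting error only. The log2 fold change was 1.11 ± 0.48 (edgeR, adjusted p = 0.131), and without male leukemic replicate 2 it was 1.39 (edgeR, adjusted p = 0.0491). The CPM of Pf4 divided by that of Ppbp was 43.0 to 122 in non-leukemic and 16.9 to 36.4 in leukemic libraries, without overlap. The value of 122 rested on the 7 counts of Ppbp in male non-leukemic replicate 1. This ratio was not tested, neither gene was called in edgeR, and the share of gene pairs without overlap was not computed. Treml1 had 2.36, 3.31 and 2.192 CPM in male and 4.11, 5.84 and 4.55 CPM in female non-leukemic libraries. It had 3.61, 2.55 and 2.37 CPM in male and 9.86, 9.33 and 6.997 CPM in female leukemic libraries. Its log2 fold change with leukemia was 0.43 ± 0.26 (edgeR, adjusted p = 0.299), at -0.03 ± 0.33 in male and 0.87 ± 0.33 in female libraries. DESeq2 called the female difference, at 0.89 with an adjusted p of 0.0442, and limma-voom did not (adjusted p = 0.0857).

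Female and male leukemic libraries were therefore compared directly. All 3 female libraries lay above all 3 male ones for 4 of the 8 tested platelet genes, Pf4, Ppbp, Gp5 and Treml1, beside 5.13% of all genes tested. The barely counted Gp1bb, which was not tested, did so as well. In the other direction, 15% of all genes tested had all 3 female libraries below all 3 male ones, and no platelet gene did. The log2 difference, female over male, was 1.89 ± 0.33 for Pf4, 1.06 ± 0.18 for Gp5, 1.77 ± 0.34 for Treml1 and 1.53 ± 0.65 for Ppbp. None passed edgeR's test after adjustment over all genes, with an adjusted p of 0.382 for the first 3 and 0.558 for Ppbp. In this comparison edgeR called 0 of 15758 genes (0%), although 1370 genes (8.69%) and 4 of the 8 platelet genes had an unadjusted p under 0.05. The unadjusted p was 9.96e-05 for Pf4, 8.43e-05 for Gp5, 2.08e-04 for Treml1 and 0.0362 for Ppbp. DESeq2 called 87 genes (0.552%) higher in female leukemic libraries, among them Pf4 (adjusted p = 1.07e-04), Gp5 (adjusted p = 6.61e-05) and Treml1 (adjusted p = 3.05e-04), while limma-voom called none (0%). The calls thus rest on DESeq2 alone. The sex labels were checked with genes known to differ: Xist had 28.8 to 41.6 CPM in the female and 0 to 3.19 CPM in the male libraries, and Ddx3y, a Y-linked gene, 0 to 4.06 and 38.7 to 63.4 CPM. The Y-linked genes Eif2s3y, Kdm5d and Uty reached 5.75, 3.27 and 3.65 CPM in female libraries. Their lowest male values were 42.1, 8.77 and 12.2 CPM. These highest female values, and the 3.19 CPM of Xist, were all in leukemic libraries, and the source of these reads was not tested. Even Xist and Ddx3y did not pass edgeR's test between the sexes, with adjusted p of 0.382 and 0.384 in leukemic libraries. An adjusted p above the threshold in these comparisons therefore does not show that a platelet gene was alike in both sexes.

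In non-leukemic libraries the estimated sex differences of Pf4, Ppbp, Gp5 and Treml1 were smaller than in leukemic ones, a change that no tool called. All 3 female libraries lay above all 3 male ones for Gp5, Itga2b and Treml1, beside 6.2% of all genes. The log2 difference was 0.44 ± 0.18 for Gp5, 0.87 ± 0.33 for Treml1, 0.41 ± 0.32 for Pf4 and 0.41 ± 0.65 for Ppbp. No gene passed in edgeR (0%), Xist (adjusted p = 0.599) and Ddx3y (adjusted p = 0.460) included, while 769 genes (4.88%) and 2 of the 8, Gp5 and Treml1, had an unadjusted p under 0.05. DESeq2 called 35 genes (0.222%) and limma-voom none (0%), and no platelet gene was among them. The change of these differences with leukemia, the interaction of sex and leukemia, was called for 0 genes (0%) in edgeR, with 925 genes (5.87%) and 2 of the 8, Pf4 and Gp5, at an unadjusted p under 0.05. It was 0.61 ± 0.25 for Gp5 and 0.89 ± 0.47 for Treml1 (edgeR, adjusted p = 0.819 for each). DESeq2 called 23 genes (0.146%) for it and limma-voom none (0%), with no platelet gene among them. The labels give no cage, day or sort batch, so sex cannot be told apart from the handling of each group of 3.

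**Figure D4:**
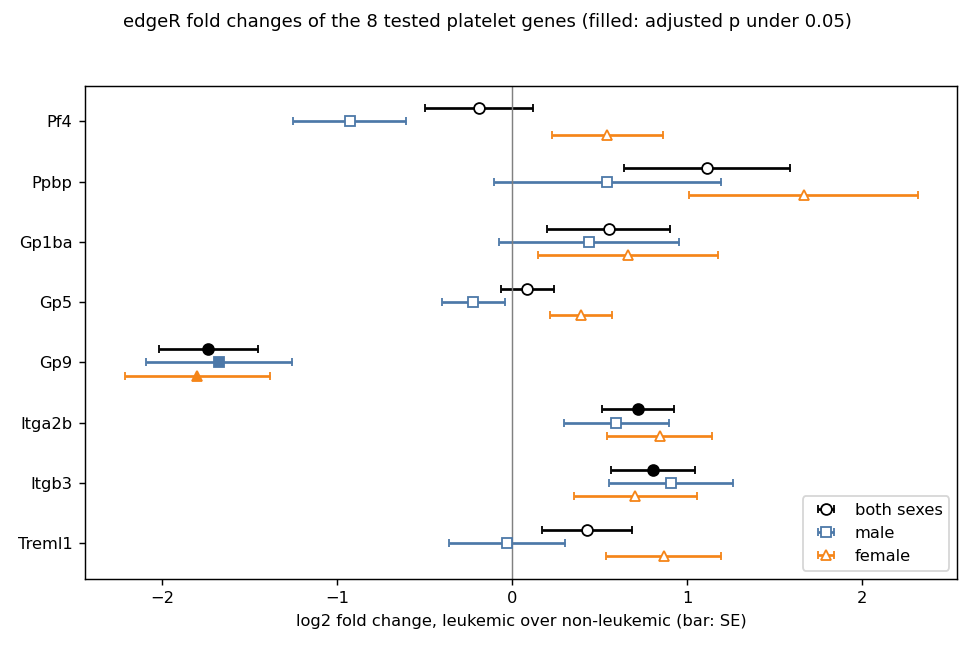
Log2 fold change, leukemic over non-leukemic, of the 8 tested genes in both sexes together (circles), male (squares) and female libraries (triangles), with bars of 1 SE from edgeR and filled symbols for an adjusted p under 0.05. Gp9 was lower by a like amount in each sex, while the male and female estimates of Pf4 lay on opposite sides of 0 (-0.93 and 0.55).

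Other genes of the platelet pathway were grouped by role. Over all genes tested, 8.71% were called higher and 9.2% lower. Of 14 tested platelet receptor genes, 7 were higher and none lower, with a median log2 fold change of 0.56. Cd226, an adhesion receptor of platelets and of T and NK cells, had the lowest p, at 2.14 ± 0.25 (edgeR, adjusted p = 8.96e-05), with 2.72 to 5.19 CPM in non-leukemic and 11.1 to 20.8 CPM in leukemic libraries. Pear1, an endothelial and platelet receptor, followed at 0.90 ± 0.16 (edgeR, adjusted p = 0.00217), and Itga2, the collagen receptor chain, at 1.38 ± 0.31 (edgeR, adjusted p = 0.00750). Clec1b, the podoplanin receptor, had 0.749 to 3.36 CPM over all libraries and a log2 fold change of 0.40 ± 0.43 (edgeR, adjusted p = 0.586).

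Among 14 granule cargo genes, 5 were higher and 1 lower, beside 8.71% and 9.2% of all genes, with a median of 0.13. Angpt1, an angiogenic ligand, was higher at 0.91 ± 0.16 (edgeR, adjusted p = 0.00195) and Serpine2, a thrombin inhibitor, at 0.69 ± 0.17 (edgeR, adjusted p = 0.0155). Sparc, a matrix protein gene, was lower at -2.98 ± 0.68 (edgeR, adjusted p = 0.00880). Vwf, the ligand of the Gp1ba complex, had a log2 fold change of -0.39 ± 0.43 (edgeR, adjusted p = 0.604), and only 2.33 CPM in female leukemic replicate 1. Of 10 genes of granule formation and release, 3 were higher and 1 lower, among them Nbeal2, needed for alpha granules, at 0.61 ± 0.18, Slc35d3, needed for dense granules, at 1.04 ± 0.31 and Stx11, a syntaxin of granule release, at -0.57 ± 0.16. Their adjusted p in edgeR lay between 0.0239 and 0.0353, and each call was lost in 8 to 10 of 21 alternatives.

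Of 11 tested cytoskeletal genes, 1 was higher, the tropomyosin gene Tpm4 at 0.92 ± 0.15 (edgeR, adjusted p = 9.64e-04), and 1 lower, the actinin gene Actn1 at -1.10 ± 0.24 (edgeR, adjusted p = 0.00738). These counts were near the shares of all genes, 8.71% higher and 9.2% lower, so they do not set the list apart. Mylk, the next by p, had 0.77 ± 0.39 (edgeR, adjusted p = 0.201), and Tubb1 0.11 ± 1.04 (edgeR, adjusted p = 0.960). Of 14 signalling genes, 2 were higher and 3 lower: Lat, an adaptor of platelets, mast cells and T cells, was higher at 2.47 ± 0.13 (edgeR, adjusted p = 4.08e-07). Rgs10, a regulator of G protein signalling, was lower at -1.02 ± 0.19 (edgeR, adjusted p = 0.00248) and Apbb1ip, an adaptor in integrin activation, at -0.52 ± 0.12 (edgeR, adjusted p = 0.00909). Lat and Cd226 are also T and NK cell genes, and 8 of 8 T and NK cell markers were higher, with sums of 241 to 484 CPM in non-leukemic and 1005 to 2086 CPM in leukemic libraries. The part of these cells was not tested. Of 6 genes for partners and receptors of the 9, Cxcr3, a chemokine receptor of T cells that PF4 has been reported to bind, was higher at 1.84 ± 0.25 (edgeR, adjusted p = 3.28e-04). Itgam, whose integrin binds the Gp1ba protein, was lower at -1.03 ± 0.24 (edgeR, adjusted p = 0.00949). Selplg, the gene of the leukocyte ligand for P-selectin, had 0.51 ± 0.20 (edgeR, adjusted p = 0.104).

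The transcription factor genes of the lineage split. Of 12 tested, 4 were higher (Gata2, Runx1, Meis1 and Etv6) and 5 were lower (Gata1, Zfpm1, Gfi1b, Tal1 and Mafg), and the median was 0.03. Of all genes tested, 8.71% were higher and 9.2% lower. Gata2, a factor of stem cells, mast cells and early progenitors, was higher at 1.35 ± 0.20 (edgeR, adjusted p = 5.31e-04). Tal1, a factor of early blood and red cell development, was lower at -1.40 ± 0.16 (edgeR, adjusted p = 9.92e-05). Itga2b and Itgb3 thus changed in the direction of Gata2, and Gp9 in the direction of Gata1, which describes these libraries and tests no link.

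**Figure D5:**
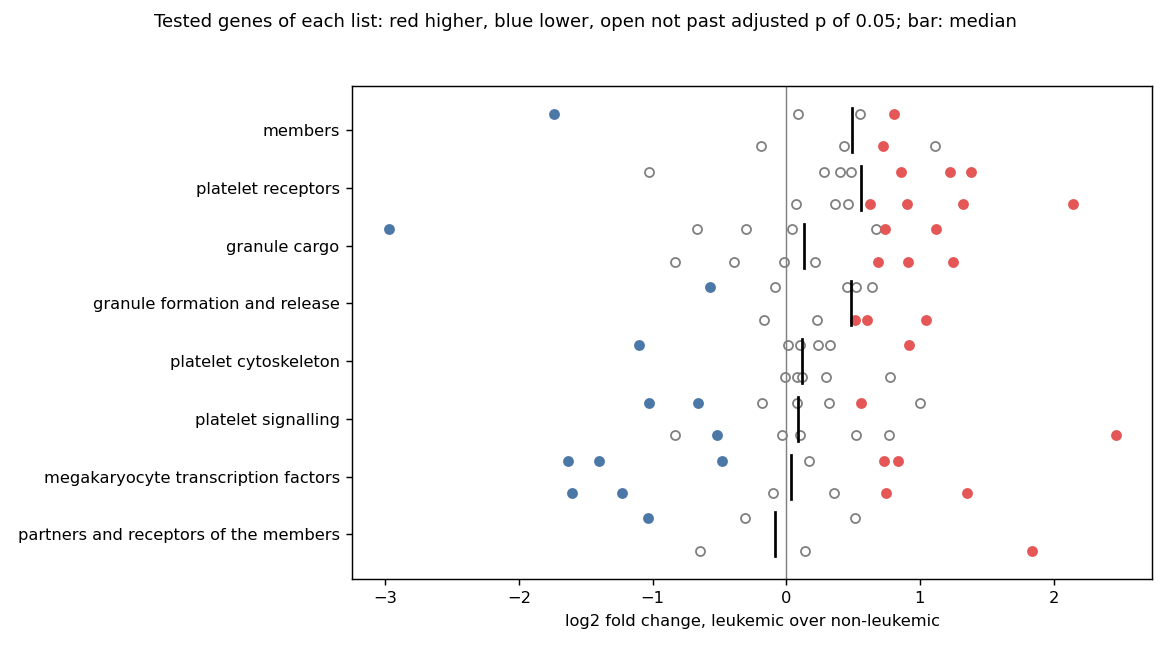
Log2 fold change, leukemic over non-leukemic, of each tested gene in the 9-gene set and in 7 lists of platelet pathway genes; filled red and blue points are higher and lower at an adjusted p under 0.05 in edgeR, open points did not pass, and black bars are medians. Receptors had the highest median (0.56) and no lower call, while transcription factors were called in both directions.

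Genes with a profile like the mean of the 8 tested platelet genes, Gp1bb left out, were sought by Pearson correlation of log2 CPM. The correlation was with the mean of these 8, each centred and scaled, over 12 libraries and 10276 genes. The 8 did not share one profile. Among themselves, Pf4, Ppbp, Gp5 and Treml1 had r of 0.58 to 0.91. Gp9 had r of -0.56 (with Itgb3) to 0.25 (with Gp5) with the other genes. The mean therefore does not stand for each of the 8. Rab27b, which encodes a small GTPase of platelet granule release, came first, at r = 0.83. It was followed by Tmem248, Def8, Enpp5, Cilk1, Trpc6, Mmab and Xist, all with r from 0.78 to 0.80. Xist, expressed in female cells, was among these 8 most similar genes. With the mean of each group of 3 taken off, Adgrl2 came first at r = 0.94, and Dpy19l4, Rab27b, Gtf3c4, Fam171a1, Trpc6, Cnot7 and Btnl9 followed at 0.86 to 0.91. Rab27b and Trpc6 were in both groups of 8 similar genes. The points share their libraries and depth, and the values are descriptions with no test.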

How the data were processed

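RNA was measured in 12 libraries of sorted macrophages, 3 in each of 4 groups taken from the labels. Per the labels' protocols, 1 ng of RNA was amplified as full-length cDNA and tagmented, with no strand and no molecular identifiers, so overlapping genes cannot be parted and PCR copies are counted. The deposited values are the authors' raw counts per gene. Per the submitters' processing notes, the tools were STAR 2.7.9a and featureCounts of Subread 2.0.1 on GRCm39, beside fastp 0.23.1, bcl2fastq 2.19.1, R 4.0.2 and DESeq2 1.28.1, and no strand setting is given in the sources used here.

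From these counts, CPM of the library totals were computed, and groups were compared by edgeR 4.0.16 in R 4.3.3 with its two-sided quasi-likelihood test (filterByExpr over the 4 groups, TMM scaling, robust dispersion). The Benjamini-Hochberg adjustment ran over 15758 genes, with calls at an adjusted p under 0.05. The comparison of conditions had sex as a term, and comparisons within a sex, between the sexes and their interaction were contrasts of the 4 group means. The SE is the log2 fold change divided by the square root of F. Depth was 16911827 to 30014855 counts, and a count of 0 allows up to 3 counts, or 0.1 to 0.177 CPM per library. Intervals cover counting error only. Log2 CPM used a prior count of 2.

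Alternatives were RLE size factors, DESeq2 1.42.0, limma-voom (limma 3.58.1), scaling by totals, a fit with no filter, one with at least 5 CPM in 3 libraries, a fit without sex, a block for replicate number, each library left out in turn, and both libraries that stood apart left out. The scripts were tested on simulated data. Libraries of a group differed by a chi-square of at least 24.0 per degree of freedom, so none was counted as a copy.

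The text names the 9 genes, the 3 tested genes of lowest p in each of 7 pathway lists (83 genes), Itgav, Gata1, Vwf, Gp6, Tubb1 and Clec1b, and 8 genes of most similar profile with and without group means. Some items the rule takes are not reported here. Other genes are named as list members, chosen after their values were seen, and the Y-linked genes as a check of the sex labels. In 8 cell type lists, Ahsp was not analysed here. The members and lists were chosen with earlier results of these data known. Promoter windows are RefSeq's on GRCm38.p6, and exon lengths and overlaps are from a GENCODE annotation on GRCm38, while the counts use GRCm39.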

Additional observations from a re-analysis of the deposited data

Results flagged for a closer look

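None of the 9 platelet genes had a library that stood far from the others of its condition. Of 88 groups of 6 libraries examined, 7 had one library whose gap to the nearest was above Dixon's 95% critical value, and chance gives about 1 in 20 such groups. In male non-leukemic replicate 3, Itgav had 51.3 CPM (16.2 to 23.5 in the other non-leukemic libraries) and Actn1 had 59.7 CPM (20.7 to 32.2). The macrophage genes of that library summed to 4574 CPM, against 1239 to 1704. In female leukemic replicate 2, Cd226 had 11.1 CPM, against 18.4 to 20.8 in the other leukemic libraries. In that library basophil and mast cell genes summed to 33915 CPM, against 9281 to 15144, and macrophage genes to 497 CPM, against 923 to 1163. In male non-leukemic replicate 2, Lat had 18.3 CPM, against 12.2 to 14.5.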

How the results depend on the processing

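The lower Gp9 kept its direction and its call in all 21 alternatives, and the higher Itga2b and Itgb3 kept their direction but lost the call in 9 and 8 of them. The number of the 9 genes called higher was 2, and 0 in limma-voom, with 0 to 2 when each library was left out in turn, while 1 was called lower in each case. Over all genes, leaving out each library gave 998 to 1958 higher and 1025 to 1952 lower, and leaving out both libraries that stood apart gave 2421 and 2296, against 1373 and 1449. Scaling by totals gave 1673 and 1120, and moved the median of all genes from -0.01 to 0.07.

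Within male libraries, 1 of the 9 was called lower, and 2 in DESeq2 but 0 in limma-voom, with scaling by totals and with the replicate number as a block. The number of male calls was 0 to 1 in each direction when libraries were left out in turn, and 1 was called higher without both libraries that stood apart. Within female libraries, 0 were called higher, and 2 in DESeq2 and 1 without both libraries that stood apart, with 0 to 1 in each direction when libraries were left out in turn. Between female and male leukemic libraries, DESeq2 called 3 higher and edgeR 0. The cause of these differences was not tested.

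Estimates near 0 changed sign. Pf4 went from -0.19 to 0.082 with no sex term, and ran from -0.32 to 0.055 without each library in turn (0.025 without male non-leukemic replicate 3, 0.055 without male leukemic replicate 2). Treml1 in male libraries went from -0.03 to 0.0059 with no low-count filter, 0.12 with scaling by totals, and -0.21 to 0.14 without each library in turn, positive without male non-leukemic replicate 2 and male leukemic replicates 2 and 3. Tubb1 went from 0.11 to -0.54 in limma-voom, and ran from -0.31 to 0.41 without each library in turn, negative without female non-leukemic replicate 1, male leukemic replicate 1 and female leukemic replicate 2. Itgav ran from -6.0e-04 without female leukemic replicate 3 to 0.46 without male non-leukemic replicate 3.

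Replicate numbers did not pair libraries: same-numbered libraries of 2 groups had correlations of -0.11 to 0.08 in their deviations from group means over 18 pairs, none over 0.1. With the replicate block, 1231 genes were higher and 1278 lower, 2 of the 9 were higher and 1 lower, and in male libraries Gp9 had -1.60 with an adjusted p of 0.0637 in edgeR. Depth limits Gp1bb and Gp6, and Ppbp at 7 to 123 counts.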
